A study of Mus musculus with 8 samples.

Results

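The comparison was between 2 stable transfectants of A20, an established line from a mouse B cell lymphoma: clone 41, which carries IgE, and a line that carries membrane IgM. Both sides had been transfected, so they differed in the class of the added immunoglobulin and in being separate lines. The members were 4 of the 8 arrays of the series, chosen by their titles: 2 arrays of clone 41 and 2 of the IgM line. The other 4 arrays held untransfected A20 cells and a second IgE transfectant, clone 18, with 2 arrays each. All lines were cultured in RPMI1640 that held 10% serum and beta-mercaptoethanol at 50 µM, and no treatment is named. Clone 41 is 1 clone, the clone of the IgM line is not named in the labels, and the constructs and their promoters are not given in the sources used here. With 1 line for each class, the class of the immunoglobulin and the identity of the line cannot be told apart.

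The B cell receptor is a membrane immunoglobulin held by the signalling chains Cd79a and Cd79b. An IgM receptor has almost no tail inside the cell, whereas membrane IgE, like membrane IgG, has a longer tail with a tyrosine that can be phosphorylated. Src family kinases and Syk start the signal, co-receptors amplify it, and phosphatases and Cbl ubiquitin ligases end it. A20 cells are known to make an IgG receptor of their own.

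Values are log2 signals relative to the 75th percentile of the same array, so 0 is the level of that percentile. Differences are clone 41 minus the IgM line, with the standard error of the limma fit and n = 2 arrays for each line. Separate cultures are not stated for the 2 arrays of a line. The p-values therefore rest on the scatter between 2 arrays of each line, which may be technical. The 2 arrays of clone 41 differed with an SD of 0.37 over 17358 genes, and those of the IgM line with an SD of 0.36. This SD was 0.32 in clone 18 and 0.65 in untransfected cells, and the fit pools the spread of all these lines. IgM array 1 stood apart in the share of spots well above background, 58.9% against 49.7% to 53.1% on the other 7 arrays. All arrays lay on 1 slide with each line in a slide column of its own, so line and column cannot be told apart. Array 1 and array 2 of every line lay in 1 slide row each, so the replicate number is also the slide row. All 10 B cell markers tested, among them Cd79b, Cd79a and Ms4a1, were well above background on all 4 arrays. Of these 10, 2 were lower and 0 higher in clone 41 at an adjusted p under 0.05 (limma) and at least 2-fold. The shares over all genes were 4.73% lower and 2.66% higher. The median difference of the 10 markers was -0.61, against 0.03 over all genes.

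Immunoglobulin variable region probes gave the largest difference among windows of neighbouring genes. Of 39 heavy chain variable probes that were kept, 27 were lower in clone 41 and 0 were higher, with a median difference of -4.64 over the 39. Across all 29140 single probes, 7.23% were called (adjusted p under 0.05 and at least 2-fold). The median of the 39 probes was 0.48 and 1.62 on the IgM arrays, -3.81 and -2.40 on the clone 41 arrays, -3.35 and -3.18 in clone 18 and -4.15 and -4.96 in untransfected cells. By these medians the IgM line was the high line, and clone 41 lay with the other lines, array 2 above array 1.

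These probes are not independent measurements, because related variable segments share sequence. Of the 27 lower probes, 21 shared a run of at least 20 bases with another of them, against 1 of the 12 that were not called. The probe for V1-7 and 3 relatives are shown because they carry this difference, with the longest run that each relative shares with V1-7 in capitals.
V1-7 (mm9 chr12:115776734-115776793, minus strand): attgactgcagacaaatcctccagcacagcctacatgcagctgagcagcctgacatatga
relative at mm9 chr12:116383750-116383809, minus strand: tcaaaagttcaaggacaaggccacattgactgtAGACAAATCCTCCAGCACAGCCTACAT
relative at mm9 chr12:115707350-115707409, minus strand: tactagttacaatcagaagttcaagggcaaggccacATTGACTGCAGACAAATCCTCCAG
relative at mm9 chr12:116842179-116842238, minus strand: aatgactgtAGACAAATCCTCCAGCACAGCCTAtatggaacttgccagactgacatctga
V1-7 read 2.07 and 3.1 on the IgM arrays and -2.96 and -1.43 on the clone 41 arrays, 27.5-fold lower (-4.78 ± 0.53, adjusted p = 0.00305). It read -2.59 and -2.66 in clone 18 and -3.42 and -3.22 in untransfected cells, so neither IgM array overlapped any other array.

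The calls were spread unevenly along the locus. The 31 variable probes farther from the constant region held 26 of the 27 lower calls, while the 8 nearest to it held 1. The median difference was -4.72 over the 31 probes and -1.20 over the 8. Among those 8, the probe at chr12:114849459-114849518 read 2.63 and 2.29 on the IgM arrays, 0.70 and 1.46 on the clone 41 arrays and 2.49 and 2.61 in clone 18. It was -3.24 and -6.97 in untransfected cells, so it was high in all 3 transfectants. Clone 41 was below the IgM line on both arrays, without passing the test (-1.38 ± 1.05, adjusted p = 0.493). The standard error of the fit includes the spread of the untransfected arrays, which disagreed on this probe. A high level in all 3 transfectants did not follow position alone. Among the farther probes, that at chr12:116610609-116610667 read 2.27 and 2.51 on the IgM arrays, 1.59 and 1.68 in clone 18 and -0.17 and 0.68 in clone 41. Untransfected cells were at -3.30 and -7.06. Among the 8 nearest, the probe at chr12:115097549-115097608 read -4.40 to -2.71 over all 8 arrays. Without 1 array at a time, between 19 (without IgM array 2) and 32 (without either untransfected array) heavy variable probes were called lower.

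The constant region probes bear on the transfected chains themselves. Of 14 that were kept, 1 was called higher (the gamma 3 position) and 1 lower (a gamma 1 probe with 1 usable clone 41 array), and the 2 gamma 2a probes were saturated on both IgM arrays. The sequences of 3 are shown because the label of each line names a heavy chain class.
epsilon (mm9 chr12:114509504-114509563, minus strand): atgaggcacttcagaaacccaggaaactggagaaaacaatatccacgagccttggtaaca
mu (mm9 chr12:114659630-114659689, minus strand): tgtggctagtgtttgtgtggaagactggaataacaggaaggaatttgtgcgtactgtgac
gamma 3 position (mm9 chr12:114597942-114598001, minus strand): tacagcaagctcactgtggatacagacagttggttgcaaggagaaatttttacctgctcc
The mu probe read 4.88 and 4.64 on the IgM arrays and 3.93 and 3.94 on the clone 41 arrays, a difference of -0.83 ± 0.19 (adjusted p = 0.046) that stayed short of 2-fold. It read 3.97 and 4.29 in untransfected cells and 3.65 and 3.80 in clone 18, and the IgM line did not pass the test against untransfected cells (0.63, adjusted p = 0.2). The epsilon probe overlapped between the lines, at 0.09 and 1.02 on the IgM arrays and -0.13 and 0.40 on the clone 41 arrays (-0.42 ± 0.41, adjusted p = 0.594). Whether these 60 bases lie in the transfected IgE sequence is not given in the sources used here, so the epsilon probe does not check the label. The probe at the gamma 3 position was higher in clone 41, at 3.37 and 3.50 against 1.40 and 1.76 (3.62-fold, adjusted p = 0.016). That call was lost without IgM array 1 (adjusted p = 0.0953), clone 41 array 1 (0.0844) or clone 41 array 2 (0.09). A gamma 1 probe at chr12:114567263-114567322 read 2.70 and 2.97 on the IgM arrays and -6.16 on clone 41 array 1. Its spot on clone 41 array 2 was marked as non-uniform by the scanner software and read 2.84, so no size is given for it. The other gamma 1 probe, at chr12:114568594-114568653, read 4.12 and 4.19 on the IgM arrays and 3.36 and 3.80 on the clone 41 arrays. It was not called by limma (-0.57 ± 0.37, adjusted p = 0.409).

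Light chain probes were also lower in clone 41 where kappa probes were called. Of 25 kappa probes, 9 were lower in clone 41 and 0 were higher, against 7.23% of all single probes called in either direction. The kappa constant probe was saturated on both IgM arrays and 1 clone 41 array, so its difference (0.20) is not a measure of change. The probes with the largest differences, V12-46 and V12-41, have at most 5 bases in a row in common. Whether they cover the same part of a variable segment was not examined, so the short run does not show 2 separate signals.
kappa V12-46 (mm9 chr6:69714517-69714576, minus strand): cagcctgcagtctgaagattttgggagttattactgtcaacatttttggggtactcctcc
kappa V12-41 (mm9 chr6:69808570-69808629, minus strand): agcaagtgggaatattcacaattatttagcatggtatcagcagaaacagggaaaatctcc
V12-46 read 3.76 and 3.91 on the IgM arrays and was not well above background on either clone 41 array (-6.56 and -6.84), at least 360-fold lower (adjusted p = 0.00477). V12-41 read 3.03 and 3.13 against -6.88 and -6.93, at least 213-fold lower (adjusted p = 0.00969; up to 0.0606 without 1 array). Both were also low in clone 18, between -6.91 and -3.57, and low or spread in untransfected cells (-2.27 and -6.98 for V12-46, -2.92 and -7.19 for V12-41). Of 5 lambda probes, 1 was called lower in clone 41, that for V3 (-3.26, adjusted p = 0.0119), and 1 higher. The higher one, lambda V1, was at 2.74 and 2.83 in clone 41 against -0.56 and 0.66 in the IgM line (6.67-fold higher, adjusted p = 0.00671). It read 0.22 and 0.36 in clone 18, a difference from clone 41 that did not pass the test (2.49, adjusted p = 0.0788).

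**Figure D1:**
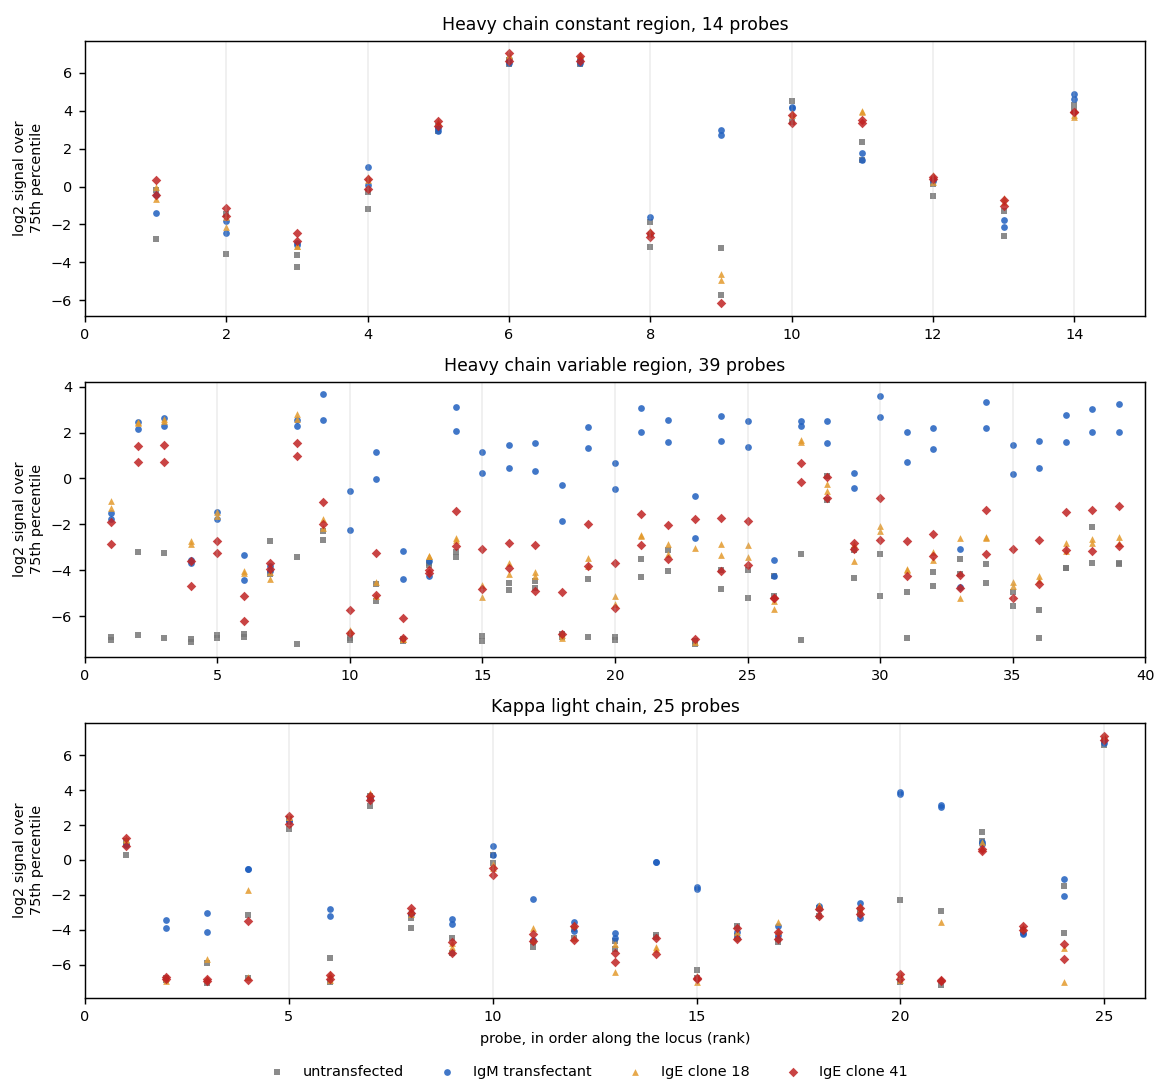
Log2 signal relative to the 75th percentile (y axis) for heavy chain constant, heavy chain variable and kappa probes, in order along each locus by rank (x axis), with 1 point for each of the 8 arrays. Both IgM arrays stand above the others over most of the variable probes with higher ranks and at kappa ranks 20 and 21, while the constant probes lie close together apart from single probes.

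Across all genes, 1476 of 19973 genes tested (7.39%) passed an adjusted p under 0.05 with at least a 2-fold difference. Of these, 532 (2.66% of the genes tested) were higher in clone 41 and 944 (4.73%) were lower. The median difference over all genes was 0.03. In bulk RNA, fewer cells that express a gene and less of its RNA in each cell cannot be told apart. The arrays of the 2 lines did not overlap for any called gene, which a call with 2 arrays for each line nearly requires, so it is no separate support. Both lines were well above background on all 4 arrays for 945 of the called genes, 396 higher and 549 lower. In 118 of the higher genes the IgM line was not well above background on either array, and in 347 of the lower genes clone 41 was not. At 4-fold or more there were 202 higher and 517 lower genes, and at 8-fold or more 113 and 297. The number of calls fell to 813 without IgM array 1, 954 without IgM array 2, 720 without clone 41 array 1 and 818 without clone 41 array 2, and rose to 1916 without either untransfected array. No gene list below had fewer calls without an untransfected array.

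**Figure D2:**
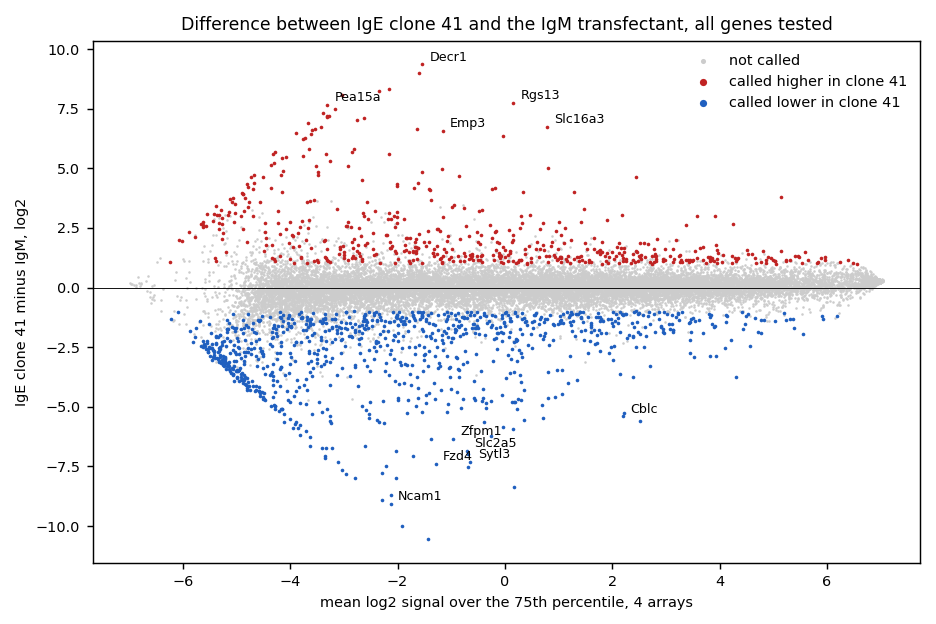
Difference between clone 41 and the IgM line (log2, y axis) against the mean log2 signal over the 75th percentile on the 4 arrays (x axis), 1 point for each of 19973 genes. The 532 genes called higher and 944 called lower lie on both sides over the whole range of signal, and the diagonal edges at the left hold genes not well above background in 1 of the lines.

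Among genes measured on all 4 arrays, the largest rise was in Rgs13, a regulator that speeds the shut-off of G protein signalling and is typical of germinal centre B cells. Rgs13 read -3.21 and -4.22 on the IgM arrays and 4.11 and 3.94 on the clone 41 arrays (probe at mm9 chr1:145985824-145985883), 213-fold higher (7.74 ± 0.81, adjusted p = 0.00255). It was 2.98 and 3.19 in clone 18 and -0.29 and -3.02 in untransfected cells, whose arrays disagreed. Slc16a3, the lactate exporter MCT4, read 4.53 and 3.77 in clone 41 against -3.50 and -1.68 in the IgM line (6.74 ± 0.63, adjusted p = 0.00159). Emp3, a small membrane protein, read 2.28 and 1.96 against -4.45 and -4.43 (94.4-fold, adjusted p = 3.61e-05). Emp3 lay in between in untransfected cells, at 0.60 and 0.02. Mbp, whose gene makes myelin basic protein and the golli proteins of immune cells, read 3.11 and 3.15 against -3.70 and -2.73 (81.1-fold).

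The other genes of this group rose between 17.3-fold and 32.1-fold. They included Cacna1h, a T-type calcium channel (31.2-fold), Eppk1, which links intermediate filaments (25.9-fold), Zyx, the focal adhesion protein zyxin (19.2-fold), and Basp1, a protein of the inner membrane surface (18.1-fold). Ng23 (Sapcd1) rose 32.1-fold and the histone gene Hist3h2ba (H2bu2) 18.1-fold. Timd2 (17.7-fold) lost its call without clone 41 array 1 (adjusted p = 0.0547), and Slamf9 (17.3-fold) without IgM array 2 or either clone 41 array (up to 0.0983). In untransfected cells, Timd2 (2.83 and 1.14) and Slamf9 (-0.34 and 1.67) were on the side of clone 41, while Cacna1h (-4.34 and -3.84), Zyx (-5.17 and -4.52) and Basp1 (-2.10 and -2.16) were on the side of the IgM line.

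The largest fall among genes measured on all 4 arrays was in Sytl3, a Rab27 effector of vesicle transport. Sytl3 read 3.02 and 2.99 on the IgM arrays and -4.38 and -4.20 on the clone 41 arrays (probe at mm9 chr17:6942330-6942389), 157-fold lower (-7.30 ± 0.35, adjusted p = 9.24e-05). Slc2a5, the fructose transporter GLUT5, read 2.46 and 2.97 against -3.82 and -4.43 (115-fold lower, adjusted p = 0.000295). Zfpm1, the GATA cofactor FOG1, read 1.95 and 2.43 against -4.20 and -4.08 (80.4-fold lower, adjusted p = 2.76e-05). Slit1, a guidance ligand, fell 75.3-fold, and Gabrr1, a GABA receptor subunit, 60.2-fold. All of these were above 0 in untransfected cells too (0.48 to 4.44), with no overlap with clone 41.

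Several of the other lower genes act in lymphocyte signalling. Ptpn7, a phosphatase of MAP kinases, read 2.59 and 2.27 in the IgM line and -3.20 and -3.22 in clone 41 (49.8-fold lower). Sash3, an adaptor of lymphocytes, read 3.36 and 3.54 against -2.23 and -1.82 (44.4-fold lower). Cblc, an E3 ubiquitin ligase of the Cbl family, read 4.88 and 4.93 against -0.68 and -0.31 (42.1-fold lower). Akap12, a scaffold for protein kinases A and C, read 4.61 and 5.10 against -1.08 and 0.24 (38.8-fold lower). Anxa10 (48.8-fold), Gpat2 (37.0-fold) and Rorb (26.5-fold) were lower as well. Rorb differed from the others in that untransfected cells (-3.93 and -4.50) were as low as clone 41 (-4.42 and -4.29).

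**Figure D3:**
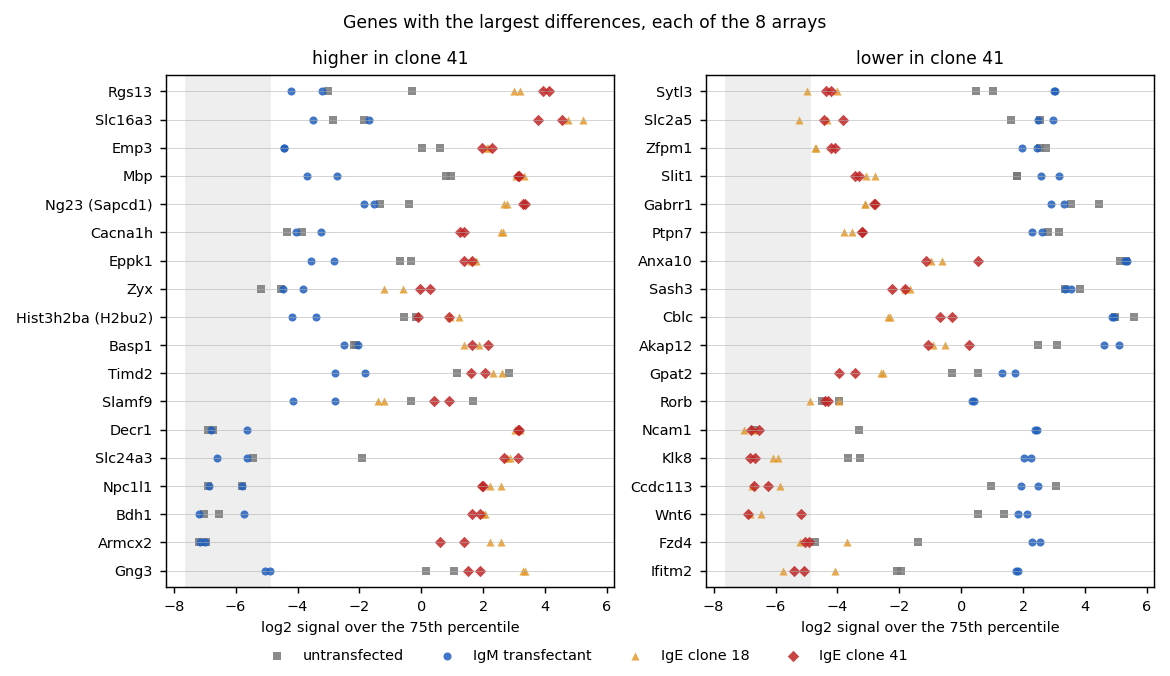
Log2 signal over the 75th percentile (x axis) on each of the 8 arrays for the genes with the largest differences (y axis), higher in clone 41 on the left and lower on the right. The lowest 6 genes of each panel were not well above background in 1 of the 2 lines; grey marks signals under -4.90. Clone 18 lies near clone 41 in most genes, whereas the untransfected arrays lie with clone 41, with the IgM line or in between.

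Genes not well above background in 1 line have only a bound, and the largest bounds included genes of lipid metabolism. Decr1, an enzyme of mitochondrial oxidation of unsaturated fatty acids, read 3.12 and 3.15 in clone 41 and -5.64 and -6.79 in the IgM line (at least 248-fold higher, adjusted p = 3.82e-05). Npc1l1, a sterol importer (at least 112-fold), and Bdh1, which interconverts the main ketone bodies (at least 96.7-fold), were on the same side. Slc24a3, a sodium, calcium and potassium exchanger, was at least 210-fold higher, Gng3, a G protein gamma subunit, at least 91.7-fold, and Armcx2 at least 55.9-fold. Untransfected cells were also low for Decr1, Npc1l1, Bdh1 and Armcx2 (-7.18 to -5.79) but not for Gng3 (1.05 and 0.14).

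On the lower side, Ncam1, a neural cell adhesion molecule, read 2.44 and 2.38 in the IgM line against -6.81 and -6.52 in clone 41 (at least 134-fold lower, adjusted p = 0.00247). Fzd4, a Wnt receptor (at least 134-fold), and Wnt6, a Wnt ligand (at least 98.7-fold), were lower too. Ccdc113 (at least 117-fold), the protease Klk8 (at least 112-fold) and Ifitm2, an interferon-induced membrane protein that restricts viral entry (at least 88.4-fold), completed the group. All 6 remained called with any 1 array left out.

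All calls among genes of B cell receptor signalling were lower in clone 41. Of 35 tested, 0 were called higher and 6 lower, against 4.73% of all genes called lower, and the median difference was -0.18 against 0.03. Fcgr2b, a member given with the Fc receptors below, was higher and passed the adjusted p but stayed short of 2-fold. Cd72, an inhibitory co-receptor, read 3.52 and 3.85 in the IgM line and 1.16 and 1.23 in clone 41 (-2.49 ± 0.18, adjusted p = 0.000538). Cr2, a complement receptor of B cells, read 3.81 and 3.15 against 1.94 and 1.94 (-1.54 ± 0.31, adjusted p = 0.0287). The Src family kinase Fyn (-1.88), the inhibitory adaptor Dok3 (-1.85) and the adaptor Bank1 (-1.67) were also lower. Untransfected cells were nearer to clone 41 for Cd72 (1.76 and 1.74). The list had 3 calls without IgM array 1, IgM array 2 or clone 41 array 1, 2 without clone 41 array 2, and 8 without either untransfected array, while Cd72 kept its call throughout.

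The signalling core did not pass the test. Cd79a differed by -0.56 (adjusted p = 0.14), and Cd79b, which was saturated on 3 of the 8 arrays, by 0.01 (adjusted p = 0.981). The kinases Syk (-0.05, adjusted p = 0.918), Lyn (0.47, 0.311) and Btk (0.28, 0.588) and the phospholipase Plcg2 (0.13, 0.662) were also not called. The adaptor Blnk read 6.51 and 6.71 against 5.84 and 5.94 (-0.72 ± 0.19, adjusted p = 0.0694).

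Cbl ligases and tyrosine phosphatases, which limit receptor signals, had calls in both directions. In the Cbl list 44.4% were called and in the phosphatase list 16.7%, against 7.39% of all genes. Of 9 genes of the Cbl group, 3 were lower and 1 was higher. Beside Cblc, the adaptor Sh3kbp1 was lower (2.40 and 2.36 against 0.89 and 0.75, adjusted p = 0.00172) and so was Cbl itself (2.31 and 2.24 against 1.02 and 1.40, -1.07, adjusted p = 0.0296). Ubash3b, a phosphatase that binds Cbl, was higher (-2.16 and -2.89 against -1.05 and -1.03, adjusted p = 0.0439). The group had 2 calls without any 1 array of the IgM line or of clone 41; the calls of Cbl and Ubash3b were the ones lost. Of 18 phosphatase genes, Ptpn7 and Ptprs were lower and Ptprj (CD148) was at least 4.13-fold higher. Ptprs read 4.08 and 4.22 in the IgM line and 2.92 and 2.81 in clone 41 (-1.28 ± 0.15, adjusted p = 0.00432). Ptprj lost its call without any 1 array of the 3 transfectants (adjusted p up to 0.129), and 1 of its other probes pointed the other way. Ptprc, the phosphatase CD45, differed by -0.35 (adjusted p = 0.501).

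Receptors for antibody Fc parts had 9.09% called and genes of B cell identity and the germinal centre 3.85%, against 7.39% of all genes. Fcgr4, a receptor that binds IgG and, in mice, IgE, was the 1 call among 11 Fc receptor genes. It read -1.82 and -1.97 in clone 41, -5.25 and -5.68 in the IgM line, -2.21 and -2.44 in clone 18 and -5.56 and -5.43 in untransfected cells (at least 7.59-fold higher, adjusted p = 0.000172). Fcgr2b, the inhibitory IgG receptor, read 4.72 and 4.53 against 3.88 and 3.67 and stayed short of 2-fold (0.85 ± 0.19, adjusted p = 0.0405). Fcer2a, the low-affinity IgE receptor CD23, differed by -0.86 (adjusted p = 0.441). Ebf1, a factor that sets B cell fate, was the only call among 26 identity and germinal centre genes, at 3.61 and 2.91 in the IgM line and 0.80 and 0.80 in clone 41 (-2.46 ± 0.42, adjusted p = 0.0165). Pax5 differed by 0.48 (adjusted p = 0.372) and Bcl6 by -0.07 (0.869). The Ebf1 call was lost without IgM array 1 or either clone 41 array (adjusted p up to 0.092), and the list had 5 calls without either untransfected array.

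Among 17 plasma cell genes, Prg2, a granule protein, was lower (0.36 and 0.55 against -6.67 and -3.66, adjusted p = 0.0117), with the call lost without either IgM array (up to 0.0566). Irf4, a factor needed for plasma cell fate, read 1.05 and 0.59 against -0.53 and -0.98 (-1.57 ± 0.43, adjusted p = 0.0734; 0.0471 with the slide row as a block, which gave the list 2 calls). The plasma cell regulator Prdm1 differed by 0.84 (adjusted p = 0.588), and Sdc1, the surface marker CD138, by -1.34 (0.0822). Calls made up 5.88% of the plasma cell list, against 7.39% of all genes. In the list for the unfolded protein response and secretion, 0 of 30 genes passed the limma test, 5 had an unadjusted p under 0.05, and the median was 0.31.

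Cell death genes mostly did not pass the test. In the anti-apoptotic list 7.14% were called and in the caspase list 15.4%, against 7.39% of all genes. Of 15 BH3-only proteins and effectors of apoptosis, 0 were called by limma and 4 had an unadjusted p under 0.05. Bcl2l11, which makes the killer protein Bim, read 2.05 and 2.05 in clone 41 and 0.18 and 0.53 in the IgM line (1.69 ± 0.42, adjusted p = 0.0575), without overlap; with the slide row as a block it passed (adjusted p = 0.0355), and the list had 2 calls. Bmf, a relative, read 0.90 and 1.59 against -0.50 and 0.30 (1.34 ± 0.36, adjusted p = 0.0719). Hax1, a mitochondrial protein with an anti-apoptotic role, differed by 0.41 (adjusted p = 0.235). Among 14 anti-apoptotic genes, Bcl2a1c was at least 3.1-fold higher (-2.76 and -3.62 against -6.85 and -7.01, adjusted p = 0.000721). Of 13 caspase genes, Casp4, a caspase of inflammation, was lower (1.73 and 0.89 against -2.71 and -1.68, adjusted p = 0.0213) and so was Casp8, which death receptors activate (3.0 and 3.06 against 1.88 and 1.97, adjusted p = 0.0164). Both caspase calls were lost without any 1 array of the IgM line or of clone 41 (adjusted p up to 0.126), and Casp4 also without either clone 18 array.

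Regulators of G protein signalling moved both ways. Of 11 RGS genes, 4 were lower and Rgs13 was higher (45.5% called, against 7.39% of all genes), with a median of -0.58. Rgs16 read 1.99 and 3.60 in the IgM line and -5.26 and -3.11 in clone 41, 126-fold lower (-6.98 ± 0.80, adjusted p = 0.00364). Rgs12 (-3.01), Rgs9 (-2.07) and Rgs2 (-1.88) were lower by less. Rgs2 lost its call without any 1 array of the 3 transfectants (adjusted p up to 0.15), and the other 4 kept theirs.

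Receptors that place B cells in lymphoid tissue are read out through the same G proteins, and 2 of 12 were called (16.7%, against 7.39% of all genes). Cxcr5, which draws B cells to follicles, read 4.38 and 4.30 in the IgM line and 1.20 and 0.93 in clone 41 (-3.28 ± 0.77, adjusted p = 0.0485; 0.0517 with the slide row as a block). The untransfected arrays disagreed on it (5.44 and 2.70), and the call was lost without any 1 array of the transfectants (up to 0.188). Cxcr3 was higher at a level close to background (at least 1.29-fold, adjusted p = 0.0319), and its call was lost without any 1 array of the IgM line or of clone 41, so the list had 0 calls without IgM array 2 or either clone 41 array. S1pr1, the receptor for exit from lymphoid tissue, read 2.03 and 2.15 against -0.46 and 0.41 (-2.11 ± 0.52, adjusted p = 0.055).

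The adhesion list had only lower calls, and the actin and motility list was called at about the share of all genes (7.14% against 7.39%). Of 16 adhesion genes 4 were lower and 0 higher, against 4.73% and 2.66% of all genes. Itgb3, the integrin beta 3 chain, read 4.65 and 4.43 against 2.25 and 2.43 (-2.20 ± 0.26, adjusted p = 0.00393), and Cd97 (Adgre5), an adhesion receptor of leukocytes, -0.68 and 0.10 against -3.08 and -3.06 (-2.79 ± 0.33, adjusted p = 0.00387). Itga6 (-3.54) and Cd24a (-1.32) were lower too, and the list had 2 calls without IgM array 1 or either clone 41 array. Of 42 actin and motility genes Basp1 was higher and 2 were lower: Nedd9, a scaffold for focal adhesion kinase (at least 76.6-fold; 1.55 and 1.65 against -5.46 and -6.88), and Marcks, an actin-binding target of protein kinase C (-1.34, lost without IgM array 1 or any clone 18 or clone 41 array). The median of the actin list was 0.13.

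Glycolysis and hypoxia genes were mostly higher in the calls they had. Of 28 tested, 4 were higher and 1 was lower (17.9% called, against 7.39% of all genes), and the median was 0.40 against 0.03 over all genes. Slc16a3 led them, followed by Ddit4, a stress-induced inhibitor of mTORC1 (2.11 and 2.02 in the IgM line, 4.94 and 4.42 in clone 41, 6.12-fold higher, adjusted p = 0.0153). The glycolytic enzymes Eno2 (1.89, adjusted p = 0.026) and Tpi1 (1.47, adjusted p = 0.0313) were higher as well. Ndrg1, a hypoxia target, was lower (1.67 and 0.97 against -0.63 and -1.19, adjusted p = 0.032). Of the 28 genes, 9 were saturated on at least 1 array, among them Hk1, Aldoa, Gapdh, Eno1 and Ldha, and a saturated signal cannot rise further; these 5 differed by 0.20 to 0.28. The list kept 1 call without IgM array 1 or either clone 41 array, and 2 without IgM array 2; Slc16a3 remained throughout.

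Lipid genes had calls only at the genes already described. Fatty acid oxidation and ketone body genes had 2 higher calls of 25 (8%, against 7.39% of all genes called), Decr1 and Bdh1, with a median of -0.10. Cholesterol synthesis and uptake had 1 higher call of 36 (2.78%), Npc1l1, with a median of 0.40. The 19 synthesis genes had a median of 0.59 and no call. Idi1, for example, read 5.43 and 5.2 in clone 41 against 4.6 and 4.71 (0.66 ± 0.54, adjusted p = 0.515), where the standard error of the fit includes the spread of the untransfected arrays.

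Type I interferon response genes had the lowest median of the functional lists, -0.76. Interferon signals through STAT factors and IRF9, which bind a motif with GAAA repeats in target promoters. Of 27 tested, 7 were lower, against 4.73% of all genes, and 2 were higher. Usp18, which shuts off the interferon receptor and removes ISG15, read 2.69 and 2.33 in the IgM line and -2.10 and -1.48 in clone 41 (19.8-fold lower, -4.30 ± 0.27, adjusted p = 0.000269). Xaf1, a pro-apoptotic target, read 0.96 and 0.65 against -2.27 and -2.51 (9.14-fold lower, adjusted p = 0.000537). Ifi27l2a fell from 5.12 and 5.50 to 2.82 and 3.38 (-2.21, adjusted p = 0.00328), and the RNA sensor Ifih1 (MDA5) from -1.03 and -0.96 to -2.41 and -2.30 (-1.36, adjusted p = 0.00405). The antiviral effectors Ifit1 (at least 2.63-fold), Mx2 (at least 2.02-fold) and Rsad2 (at least 1.46-fold) were lower from levels already near background.

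Of the 18 interferon genes tested and not called, 12 were below 0, among them Ifi27l1 (-2.33, adjusted p = 0.0807), Ifit3 (-1.32, 0.106), Oasl1 (-1.31, 0.197) and Zbp1, which passed the adjusted p but not the 2-fold limit (-0.78, 0.0447). Bst2, tetherin, was higher (4.81 and 4.68 against 3.37 and 3.35, 1.38 ± 0.31, adjusted p = 0.0402; 0.0505 with the slide row as a block), as was the RNA sensor Ddx58 (RIG-I, -1.47 and 0.16 against -3.63 and -3.09, adjusted p = 0.0384). Isg15 (-0.39, adjusted p = 0.485), Irf7 (-0.08, 0.901) and Irf9 (0.50, 0.276) were not called. In untransfected cells Usp18 (1.5 and 1.07) was on the side of the IgM line, and Ifit1 (-5.45 and -4.54) was in between. Between 5 (without IgM array 1) and 9 calls remained when 1 array was left out; Usp18, Xaf1, Ifi27l2a, Ifih1 and Ifit1 kept theirs, while Bst2, Mx2, Rsad2 and Ddx58 did not (adjusted p up to 0.192).

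Promoters of a lower gene with the motif, a lower gene without it and a higher gene with it are shown, from RefSeq on GRCm38.p6, with matches to GAAA, any 2 bases and GAAA again, on either strand, in capitals.
Ifit1 (chr19:34640639-34640938, plus strand): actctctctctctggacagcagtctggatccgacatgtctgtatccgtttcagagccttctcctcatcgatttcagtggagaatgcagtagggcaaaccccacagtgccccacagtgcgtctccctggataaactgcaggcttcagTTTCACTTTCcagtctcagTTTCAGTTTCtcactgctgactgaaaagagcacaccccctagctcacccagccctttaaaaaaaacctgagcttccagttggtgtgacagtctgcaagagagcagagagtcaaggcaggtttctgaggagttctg
Xaf1 (chr11:72301379-72301678, plus strand): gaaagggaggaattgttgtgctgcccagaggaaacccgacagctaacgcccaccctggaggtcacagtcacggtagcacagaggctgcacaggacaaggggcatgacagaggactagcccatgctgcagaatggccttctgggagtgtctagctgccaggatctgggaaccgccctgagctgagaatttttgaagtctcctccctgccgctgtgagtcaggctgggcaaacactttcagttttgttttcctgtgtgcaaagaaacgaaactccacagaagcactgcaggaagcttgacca
Bst2 (chr8:71537423-71537722, minus strand): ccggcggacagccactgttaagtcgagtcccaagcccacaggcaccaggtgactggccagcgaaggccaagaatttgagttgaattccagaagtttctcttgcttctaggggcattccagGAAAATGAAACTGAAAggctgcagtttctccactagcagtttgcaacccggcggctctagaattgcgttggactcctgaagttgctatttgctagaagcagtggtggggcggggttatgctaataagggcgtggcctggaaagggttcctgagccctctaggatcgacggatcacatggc
The 2 matches in Ifit1 stand apart, and the 2 in Bst2 overlap. Of the 27025 genes in the promoter table, 3.99% had a match in these 300 bases, and of the 18 interferon genes tested and found there, 9 had one. A match was found in 3 of 4 lower genes with a promoter in the table (Ifih1, Ifit1 and Rsad2) and in 2 of 2 higher ones (Ddx58 and Bst2), so the motif was present on both sides.

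Antigen presentation genes had calls in both directions. Of 28 genes for MHC and co-stimulation, 5 were higher and 2 lower (25% called, against 7.39% of all genes). The 11 genes of the class II pathway had a median of 1.04 with 3 higher calls: H2-Ob, a subunit of the peptide exchange inhibitor (1.54 and 1.94 against 3.25 and 3.90), H2-DMb1, of the peptide exchanger (3.43 and 3.05 against 4.64 and 4.31), and H2-Eb1, a class II chain (6.10 and 5.83 against 6.99 and 7.01). The class II chains H2-Aa (1.53 ± 0.42, adjusted p = 0.0746) and H2-Ab1 (0.88 ± 0.16, adjusted p = 0.0211) were also above the IgM line on both arrays, but were not called. The class II activator Ciita differed by 0.37 (adjusted p = 0.705). Cd86, a co-stimulatory ligand, read -0.85 and -0.68 in clone 41 and -4.42 and -4.30 in the IgM line (12.1-fold higher, adjusted p = 0.000168), with untransfected cells at 0.10 and -0.34.

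The class I pathway had calls on both sides. Nlrc5, the activator of class I genes, read 2.49 and 2.82 in the IgM line and -0.58 and 0.12 in clone 41 (7.39-fold lower, adjusted p = 0.00207). B2m, the class I light chain, read 6.36 and 6.67 against 5.12 and 5.50 (-1.20, adjusted p = 0.0167) and was saturated on 3 arrays of the series. H2-K1 differed by -0.63 (adjusted p = 0.155) and H2-D1 by -0.96 (0.228), while Tapbp, which loads peptides, was higher (1.14, adjusted p = 0.0136). The list kept 3 calls without any 1 array of the IgM line or of clone 41; Cd86 and Nlrc5 kept theirs throughout, whereas the class II calls did not (adjusted p up to 0.204).

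Cytokine and TNF family genes were lower in most of their calls. Of 27 genes for cytokine receptors and STATs, 5 were lower and 1 was higher (22.2% called, against 7.39% of all genes). Il2rg, the common gamma chain, read 1.57 and 1.22 in the IgM line and 0.09 and -0.34 in clone 41 (-1.52 ± 0.28, adjusted p = 0.0198), and Jak3, the kinase bound to it, 0.66 and 0.92 against -0.52 and -0.67 (-1.39, adjusted p = 0.0213). Il1r1 (at least 3.64-fold), the decoy receptor Il1r2 (at least 2.97-fold) and Socs2 (-1.26) were lower, and Epor, the erythropoietin receptor, was higher (1.70 and 1.41 against -0.85 and 0.15). None of these 6 calls held without each array in turn; the list kept 2 calls without either IgM array, 1 without clone 41 array 1 0 without clone 41 array 2, 3 without either clone 18 array and 9 without either untransfected array. Among 8 TNF family ligands 3 were lower, and among 14 receptors and adaptors 0 were called by limma (13.6% of the 22 genes). Cd70, the ligand of CD27, was at least 13.3-fold lower (-0.53 and -1.33 against -6.59 and -6.81), Tnfsf13b, the survival factor BAFF, 9.62-fold (-1.15 and -1.17 against -4.91 and -3.94), and Tnfsf10, TRAIL, at least 2.24-fold. These 3 remained called with any 1 array left out.

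Immediate early and NF-kB genes can report recent receptor signalling. Of the immediate early and activation list 14.3% were called and of the NF-kB list 4.76%, against 7.39% of all genes. Of 28 immediate early and activation genes, Klf4 was higher (1.53), and Nr4a2 (-2.17), Cd69 (-1.69) and Trib1 (-1.57) were lower. None of these calls held without each array in turn (adjusted p up to 0.196), Cd69 lost its call with the slide row as a block (0.0704), and the list kept 1 call without any 1 array of the IgM line or of clone 41 and 2 without either clone 18 array. Of 21 NF-kB genes, Il10 was lower (-0.67 and 0.64 against -1.97 and -1.62, adjusted p = 0.0491), and this call was lost without IgM array 2, without any array of the IgE clones and with the slide row as a block (0.0623).

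Calcium channel genes, which act downstream of the receptor or set the resting calcium level, moved both ways. Of 28 tested, 3 were higher and 4 lower (25% called, against 7.39% of all genes). Beside Cacna1h, the accessory subunits Cacng7 (-0.08 and 1.00 against -3.30 and -3.12, 12.8-fold higher) and Cacnb1 (at least 7.95-fold higher) were higher. Cacna1s, the channel of skeletal muscle, was lower at a high level (5.04 and 4.91 in the IgM line, 2.10 and 2.04 in clone 41, -2.91 ± 0.25, adjusted p = 0.00101). Cacna1d (-1.47), Trpm4 (-1.87) and the calcium pump Atp2b4 (-1.46) were lower by less, and these 3 lost their calls without IgM array 1 or clone 41 array 1 (adjusted p up to 0.0973), which left 4 calls in the list.

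Proliferation genes were called at about the share of all genes, 5.88% of cell cycle and 6.67% of clustered histone genes against 7.39%. Of p53 targets 11.8% were called. Of 34 cell cycle genes, Spdya, an activator of cyclin-dependent kinases (9.58-fold), and the inhibitor Cdkn2b (3.34-fold) were higher, and 0 were lower. Of 30 clustered histone genes, Hist1h1a (H1f1) was higher at 3.31 and 2.95 against -0.41 and 0.06 (9.84-fold, adjusted p = 0.00241), beside Hist3h2ba, and the list had 4 calls without IgM array 2. Of 17 p53 targets, Phlda3, an inhibitor of Akt, was at least 53.4-fold higher (1.49 and 0.34 against -5.38 and -7.0), and Rrm2b, a ribonucleotide reductase subunit, was lower (-1.38). Cdkn2b lost its call without IgM array 2 or clone 41 array 1 (adjusted p up to 0.0722), and Rrm2b without any 1 array of the IgM line or of clone 41, which left 1 call in either list.

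**Figure D4:**
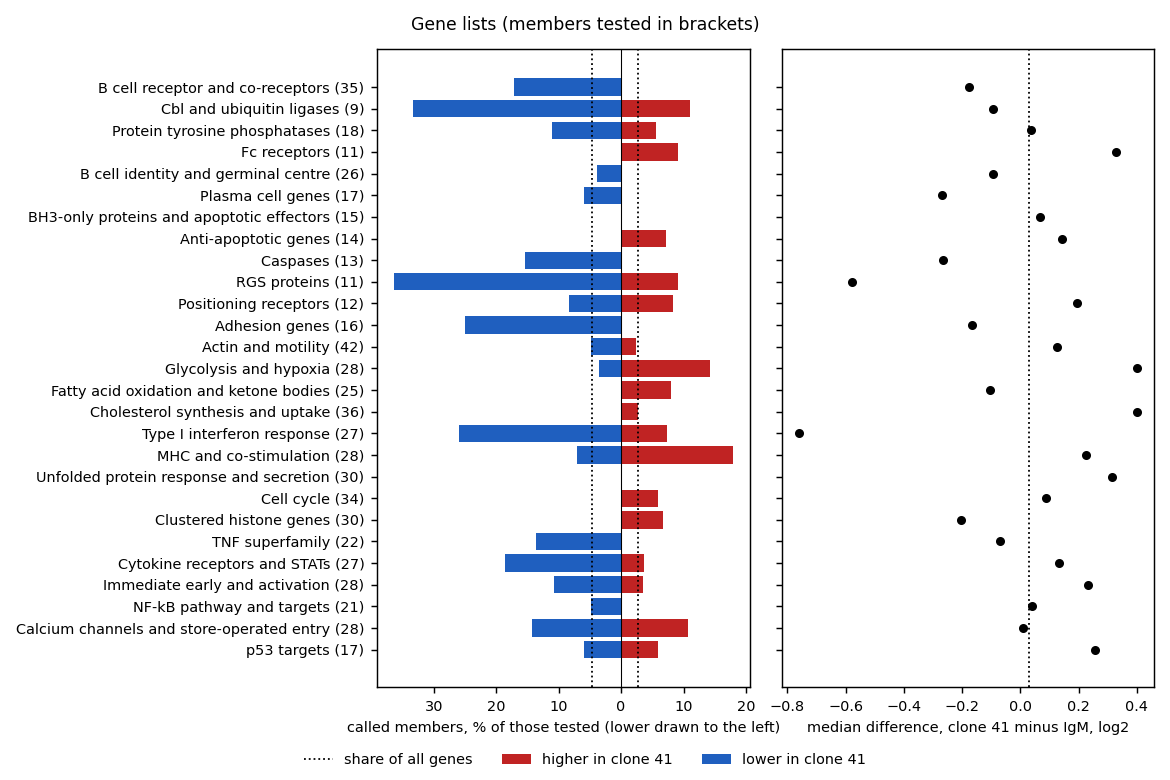
Share of tested members called in each of 27 gene lists (left, percent; lower drawn to the left, higher to the right) and median difference of the tested members (right, log2). Dotted lines give all genes: 4.73% lower, 2.66% higher and a median of 0.03; the lowest median is that of the interferon list (-0.76), and the highest are those of glycolysis and cholesterol (0.40 each).

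Some markers of other cell types were detected in both lines. For comparison, the summed level of the 10 B cell markers was 8.58 and 8.48 in the IgM line and 8.34 and 8.32 in clone 41. The summed level of the 7 T cell markers tested was 2.69 and 2.71 in the IgM line and 2.53 and 2.34 in clone 41, with Cd3g (at least 12.6-fold) and Cd5 (-1.55) lower. The 7 myeloid markers summed to 5.77 and 5.92 against 6.09 and 5.79, with Cd68 higher (1.52) and Emr1 (Adgre1) lower (-3.49). The 4 erythroid markers summed to 0.30 and 0.89 against 2.82 and 2.51, with Hbb-b1 (Hbb-bt, 2.71) and Epor higher; both erythroid calls were lost without clone 41 array 1. Of the 2 NK cell markers Klrb1c was at least 7.32-fold lower, and 0 of 4 plasma cell, 3 stromal and 1 mast cell markers were called. The defining genes Cd3d, Cd8a, Ncr1, Lyz2, Cd14, Kit and Fcer1a were not tested because neither array pair of any line was well above background. The part of these markers in the results was not tested.

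Some differences were grouped along chromosomes. Over 19229 windows of 25 neighbouring genes, the median difference had a 5th percentile of -0.26 and a 95th of 0.25. The lowest window was the heavy chain variable region (chr12:115379078-116831560, mm9), with a median of -4.70 and 18 lower calls. A window at chr2:174433221-175662021 had a median of -1.23 and 12 lower calls, nearly all of them unnamed transcripts. A window at chr6:128393686-131235689 had a median of -0.89 and 10 lower calls, among them Klrb1a, Klrb1b, Klrb1c, Clec2i, Clec12a and Cd69, lectin-like receptors of the NK gene complex. Klrb1c kept its call under every alternative processing, and Klrb1b lost its call under normexp background correction and in the authors' value table. Those of Klrb1a, Clec2i, Clec12a and Cd69 were lost without IgM array 1 or without clone 41 array 1.

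The highest windows lay on chromosomes 1 and 10. At chr1:162966197-165315280 the median was 1.00 with 9 higher calls, among them Prrc2c, Mettl13 and Gorab, whose call was lost with the slide row as a block (adjusted p = 0.0554). The window's median level, centred gene by gene, was 0.51 and 0.60 on the clone 41 arrays and 0.56 and 0.54 on the clone 18 arrays, against -0.48 and -0.41 in the IgM line and -0.59 and -0.55 in untransfected cells. At chr10:61728517-62781886 the median was 0.94 with 8 higher calls, among them Ddx21, Ddx50, Sirt1 and Herc4, and the neighbouring window chr10:57232832-60175710 had a median of 0.91 and 8 calls. There the IgM line was the low one (-0.68 and -0.66 in the first of the 2 windows) and the other 3 lines lay between 0.10 and 0.30. Ddx50 kept its call with any 1 array left out, while Ddx21, Sirt1 and Herc4 lost theirs without clone 41 array 1. DNA copy number was not measured.

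Set against the second IgE transfectant, clone 41 differed little: 71 of 19973 genes (0.355%) were called between clone 41 and clone 18, 35 higher (0.175%) and 36 lower (0.18%). Against untransfected cells 5.6% of genes were called in clone 41 (2.42% higher, 3.18% lower) and 2.03% in the IgM line (1.22% higher, 0.811% lower), and 9.14% were called in clone 18 against the IgM line (3.4% higher, 5.74% lower). Genes in which clone 41 stood apart from all 3 other lines were few. Luzp4 was not well above background in clone 41 (-6.95 and -6.79) but read -3.63 and -3.93 in the IgM line, -1.11 and -0.99 in clone 18 and -0.87 and -0.64 in untransfected cells. Lgr6, a receptor for R-spondins, read -6.89 and -6.80 in clone 41 against -2.97 to -1.47 elsewhere (at least 7.59-fold below the IgM line). Zfp941 (17.2-fold below the IgM line) and Wdr96 (Cfap43, 13.5-fold) were near or above 0 in the 3 other lines. Eif4e3, a cap-binding protein (at least 4.73-fold), and the Notch coactivator Maml2 (at least 1.46-fold) were lower too. Galntl1 (Galnt16, at least 2.57-fold), the small heat shock protein Hspb1 (at least 1.77-fold) and Ttn (at least 1.38-fold) were detected in clone 41 and in no other line. Against the IgM line, the calls of Ttn and Maml2 were lost under normexp background correction, in the authors' value table and with no filter on dim probes. Those of Galntl1, Hspb1 and Luzp4 were lost under normexp.

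In other genes it was the IgM line that stood apart from the 3 other lines. These genes, like those of clone 41 above, were chosen for that pattern, so their levels in the other lines are a description. The IgM line was high in Ncam1, Klk8, Akr1c13 (at least 58.2-fold above clone 41), Dmd, dystrophin (at least 43.9-fold), Art1 (at least 7.29-fold) and Car2, a carbonic anhydrase (24.6-fold). Car2 lost its call without any 1 array of the IgM line or of clone 41 (adjusted p up to 0.0957). It was low in Pea15a, which holds ERK in the cytoplasm: -7.10 and -7.19 in the IgM line, 0.58 and 0.47 in clone 41, 0.41 and 0.48 in clone 18 and -0.02 and -0.14 in untransfected cells (clone 41 at least 40.7-fold higher, adjusted p = 1.02e-05). Gng3, Adm2 (at least 30-fold), Pnoc (at least 18.6-fold), Defb19 (at least 14.1-fold) and Serpina3g (at least 8.63-fold) were low in the IgM line likewise. Adm2 lost its call without clone 41 array 1 (adjusted p = 0.0532).

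**Figure D5:**
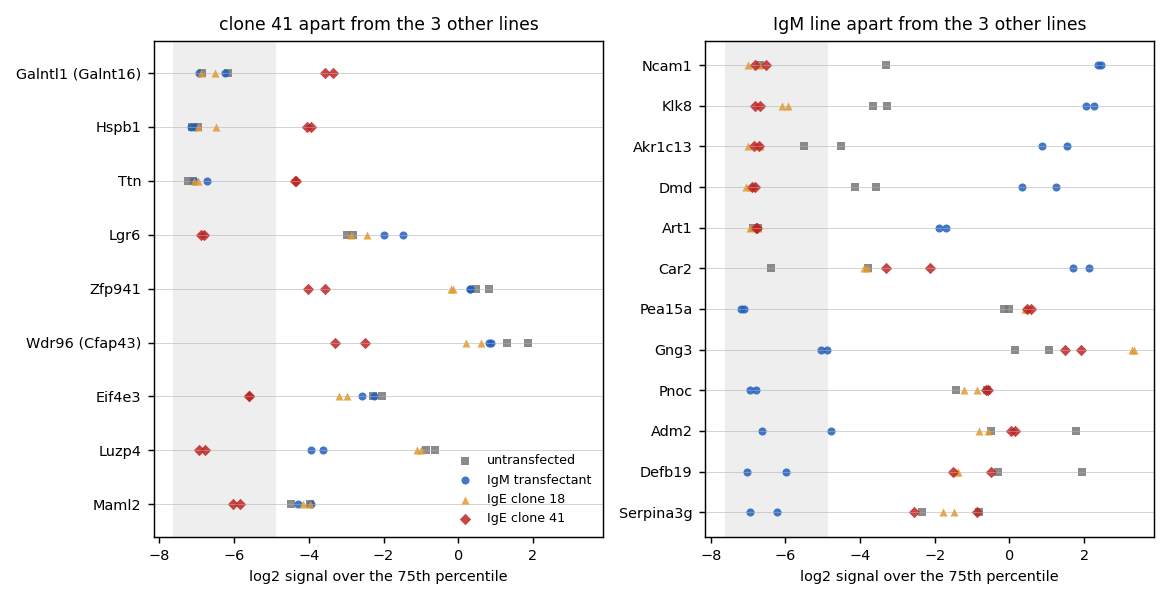
Log2 signal over the 75th percentile (x axis) on each of the 8 arrays for genes (y axis) in which clone 41 (left) or the IgM line (right) was called against all 3 other lines in 1 direction. Grey marks signals under -4.90; on the left the clone 41 arrays, and on the right the IgM arrays, lie apart from the other 6.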

How the data were processed

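Total RNA (1 µg) of 8 samples was labelled with Cy3 and hybridised to Agilent 1-colour mouse arrays. The deposited scanner files hold spot intensity from Feature Extraction 10.7.3.1, background-subtracted by that software per the file headers, with probe positions on mm9. The deposited value table holds the authors' log2 values, used only as an alternative; its exact normalization is not given in the sources used here.

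Control spots and outlier spots were left out, the processed signal was taken to log2 and each array's 75th percentile was subtracted. Probes entered the fit where at least 1 line had both of its arrays well above background, and a gene was read from its brightest kept probe. limma 3.58.1 in R 4.3.3 fitted 1 mean for each line over all 8 arrays, and p-values were adjusted by Benjamini-Hochberg over all 19973 genes; a call needed an adjusted p under 0.05 and at least a 2-fold difference. The single immunoglobulin probes were fitted with all 29140 kept probes. A probe not well above background on either array of a line has a bound ("at least N-fold"), set against each array's lowest signal well above background (log2 -4.90 to -4.63). The fit was tested on simulated data with 19973 genes for this comparison: 0 of 50 genes changed 1.5-fold were called, 23 of 50 changed 2.5-fold, 41 of 50 changed 4-fold and 49 of 50 changed 8-fold, with 8 unchanged genes called. The number of arrays limits the precision.

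The 75th percentile of signal was 474 to 664 over the arrays. The deviations of arrays with the same replicate number from their line means, over 17358 genes, correlated between lines at 0.35, 0.26, 0.23 and 0.15 in 4 of 6 pairs of lines (0.23 for clone 41 and the IgM line) and at -0.06 and -0.003 in the other two. Not every pair was over 0.1 and no label pairs the samples, so the main fit has no block; the replicate number is the slide row, and the fit with it as a block is given where it changes a call.

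The members and the gene lists were chosen with earlier results of these data known. The genes named were the 12 largest called differences in each direction measured on all 4 arrays, the 6 largest bounds, up to 4 called genes in each direction and up to 2 defining genes of each list, 6 genes in each direction in which clone 41 or the IgM line stood apart from the 3 other lines, the heavy chain constant probes, a fixed set of genes (among them Cd79a, Cd79b, Ptprc, Irf4, Prdm1, Pax5, Bcl6, Fcer2a, Bcl2l11 and Hax1) and called genes of the extreme windows. Cr2, H2-Eb1, Ifi27l2a, Ifih1, Rsad2, Socs2, the variable and light chain probes and other genes given without a call were chosen after their values were seen. Some genes that the rule names or the lists count are not reported here. Current symbols stand in brackets where RefSeq has another. Alternatives were other normalizations, background correction, filters, probe summaries, samples in the fit, a replicate block and each array left out.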

Additional observations from a re-analysis of the deposited data

Results flagged for a closer look

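The contrast of clone 41 with the IgM line was set against the same contrast for clone 18, which the limma fit tests as clone 41 minus clone 18 (n = 2 arrays for each clone). Among the genes and transcripts singled out here, 14 differed between the 2 IgE clones in that test. Those named above because clone 41 stood apart from all 3 other lines had been chosen by this same test. Their values here are a description and no further support. Clone 41 was above clone 18 in Galntl1 (3.25 ± 0.33, log2, adjusted p = 0.0144), Hspb1 (2.73 ± 0.20, adjusted p = 0.00391), Ttn (2.67 ± 0.18, adjusted p = 0.00241), Il2rg (2.12 ± 0.28, adjusted p = 0.0454) and Cblc (1.84 ± 0.24, adjusted p = 0.0459). Il2rg and Cblc were below the IgM line in both clones, further so in clone 18. Galntl1, Hspb1 and Ttn were detected in clone 41 alone, so their sizes here rest on signal near background in clone 18.

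Clone 41 was below clone 18 in Luzp4 (-5.82 ± 0.19, adjusted p = 5.72e-05), Lgr6 (-4.19 ± 0.24, adjusted p = 0.00113), Zfp941 (-3.63 ± 0.22, adjusted p = 0.00151), Wdr96 (-3.30 ± 0.33, adjusted p = 0.0131) and Eif4e3 (-2.52 ± 0.19, adjusted p = 0.00391). Maml2 (-1.86 ± 0.23, adjusted p = 0.0399) and the phosphatase Ptprs (-1.55 ± 0.15, adjusted p = 0.014) were lower as well, and Ptprs in clone 18 (4.42 and 4.41) was not below the IgM line (4.08 and 4.22). Luzp4, Lgr6, Eif4e3 and Maml2 were not well above background in clone 41, so their sizes here rest on background signal too. In the window of lower calls on chromosome 2, an unnamed transcript differed by -3.67 ± 0.25 (adjusted p = 0.00252) and a non-coding transcribed region by -4.40 ± 0.31 (adjusted p = 0.00301).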

How the results depend on the processing

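Against the 1476 calls reported, the authors' value table gave 899 (540 lower), no filter on dim probes 944 (321 higher, 623 lower), a filter asking for signal above background on all 8 arrays 963 (540 lower), and normexp background correction 597 lower. With 1 array left out the total ran from 720 (without clone 41 array 1) to 1916 (without either untransfected array), the higher calls from 248 (without clone 41 array 2) to 721 and the lower from 470 to 1195. With the replicate number, which is the slide row, as a replicate block there were 1549 calls; 8 named calls were lost (Cxcr5, Bst2, Cd69, Il10, Gorab and 3 unnamed transcripts), and Bcl2l11 and Irf4 passed. Of 190 named called genes, 84 kept their call under all 22 alternatives and 106 lost it under at least 1, 88 of them when an array was left out. The following changed sign, and the cause was not tested. Cd79b (0.01) was -0.23 under quantile normalization, -0.0154 with the percentile of bright probes and -0.24 in the authors' table, and ran from -0.0749 (without IgM array 1) to 0.0966 (without IgM array 2) with 1 array left out. An unnamed chromosome 6 transcript (-1.31) was 0.0254 under normexp, and the epsilon probe (-0.42) ran from -0.888 (without IgM array 1) to 0.0389 (without IgM array 2). The 2 gamma 2a probes (0.22 and 0.15) were -0.14 and -0.18 under quantile normalization and -0.20 and -0.11 in the authors' table. Probes near background have only bounds, and saturated probes cannot show a rise.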
